A study of Homo sapiens with 10 samples.

Results

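Acetylated promoters that hold MYCN were taken as the H3K4me3 regions, on the autosomes and chromosome X, that share at least 1 bp with an H3K27ac region and at least 1 bp with a MYCN peak. The rule found 644 of the 13852 H3K4me3 regions, or 4.65%, and 7.02% of the 9176 acetylated ones. These regions cover 1.33 Mb. The other 8532 acetylated H3K4me3 regions, without MYCN, serve as the comparison, and 63 H3K4me3 regions with MYCN and no H3K27ac form a second one. H3K4me3 stands here for a promoter, since no gene annotation of the build was used, so that transcript starts were not checked and the regions carry no gene names.

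The cells were RPMI-8402, a human line of T-cell acute lymphoblastic leukaemia, grown without a stated treatment and profiled by CUT&RUN, in which a nuclease guided by an antibody cuts out the DNA beside the target for sequencing. Of the 10 libraries, 4 were control IgG, and the peak lists of the other 6 were used: MYCN of set A, H3K4me3 of set B, MYC, H3K27ac and H3K4me1 of set C, and MYC of set D. Every target but MYC has 1 library, and the 2 MYC lists name the same signal track in their headers, so that they may not be independent. As the control of MYC in set D, the labels name that same library and not an IgG one. The regions were chosen by the listed positions of MYCN, H3K4me3 and H3K27ac peaks, so values of these lists, also where both groups are given side by side, are descriptions with no test. The MYC and H3K4me1 lists were not used and could be compared.

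MYC and MYCN are related basic helix-loop-helix leucine zipper proteins. Each pairs with MAX and binds E-box DNA, mostly in the open chromatin of active promoters, and MYCN is known as the amplified oncogene of neuroblastoma. H3K4me3 marks the nucleosomes at active or poised promoters. H3K27ac is laid down by the acetyltransferases p300 and CBP at active promoters and enhancers, and H3K4me1 is typical of enhancers and of promoter flanks. In T-cell leukaemia MYC is a well-known target of NOTCH1 signalling.

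The lists give positions only and the depth of each library is unknown. No target but MYC has a second library, and the 2 MYC lists may stem from 1, so no test over replicate samples was made. Differences between groups of regions are therefore given as percentage points with a 95% Newcombe interval, and single shares with an exact Clopper-Pearson interval. These intervals cover counting error over the listed regions only, not the spread between cultures, and no p-value is given. All coordinates are on hg19 and count from 1.

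MYCN was mostly a single, short peak inside a much wider H3K4me3 region. The 644 promoters held 671 of the 895 MYCN peaks, or 74.97%. A single MYCN peak was present in 618 of them, 2 peaks in 25 and 3 peaks in 1. The MYCN peaks had a median width of 225 bp (quartiles 179 and 337), while the 224 MYCN peaks elsewhere had a median of 215.5 bp. The H3K4me3 regions around them had a median width of 1982.5 bp (quartiles 1455.75 and 2585.5), against 1579 bp at acetylated regions without MYCN. MYCN filled a median of 13.1% of the bases of its region. On a scale of 0 to 1 from the lower coordinate, the MYCN centre lay at a median of 0.490 (quartiles 0.332 and 0.675). The strand of each promoter was unknown, so mirrored positions cancel in this median and it does not place MYCN at the middle. Of the centres, 78.8% fell between 20 and 80% of the way across, a stretch that makes up 60% of each region. Only 14 of the 671 centres lay outside the H3K4me3 region that their peak touched, and 92.5% of the peaks lay wholly inside it.

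H3K27ac formed 1 block at most of these promoters, and the MYCN peak usually sat in it. A single H3K27ac region was present at 620 of the 644 promoters and 2 or more at the other 24 (3.73%). Acetylated regions without MYCN had 2 or more in 261 of 8532 cases (3.06%), so a single block was usual in both groups. The H3K27ac regions covered a median of 42.1% of the promoter, against 44.0% at acetylated regions without MYCN. The rule asks that the H3K4me3 region is acetylated, not the MYCN peak itself. Of the MYCN peaks, 596 (88.8%) overlapped H3K27ac and 391 (58.3%) lay wholly inside 1 H3K27ac region. Among the 75 that did not touch it, 67 had H3K27ac of the same promoter on 1 side only and 8 lay between 2 H3K27ac regions.

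**Figure D1:**
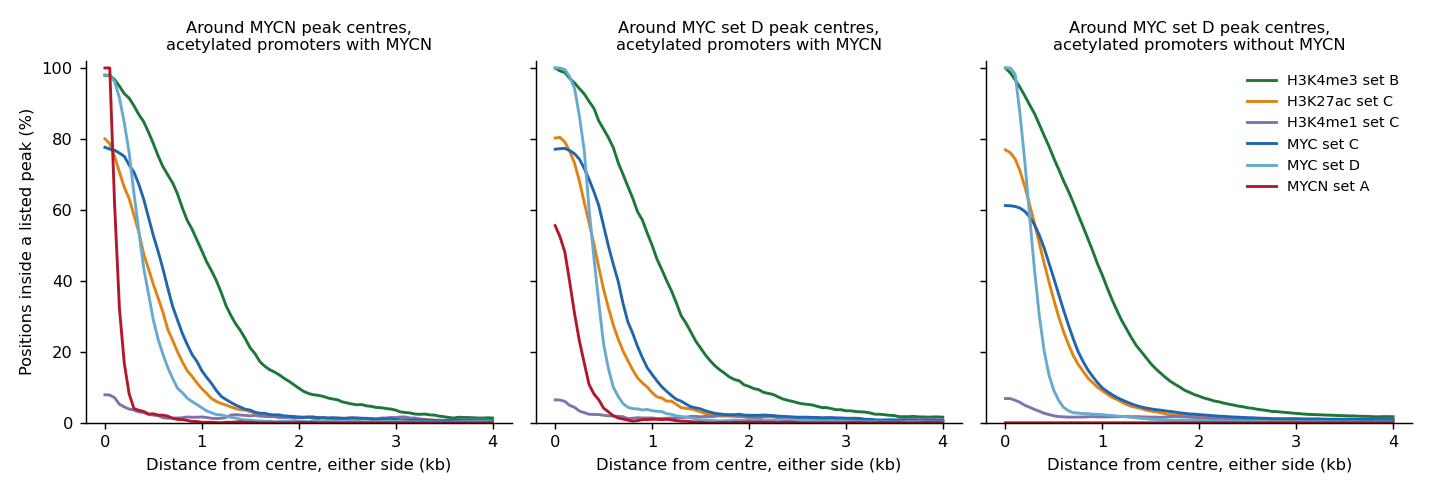
Share of positions that lie inside a listed peak (y axis, %) against the distance from a centre, both sides averaged (x axis, kb): around the 671 MYCN peak centres at acetylated promoters with MYCN, around 664 MYC set D centres at the same promoters, and around 6924 MYC set D centres at acetylated promoters without MYCN. MYC of set D covered 98.1% of the MYCN centres and 29.0% of positions 500 bp away. For H3K4me3 the shares were 97.9% and 78.7%. Reach depends on the caller, and no order among the lists is read from it.

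The cover of each list fell with distance from the MYCN centre. How far a list reaches depends on its caller as well as on the mark, and no order among the lists is read from these shares. MYC of set D covered 98.1% of the MYCN centres, 29.0% of positions 500 bp away and 4.25% of those 1000 bp away. MYC of set C covered 77.6% at the centre, 52.8% at 500 bp and 14.7% at 1000 bp. For H3K27ac the shares were 80.03%, 39.0% and 9.61%, and for H3K4me3 97.9%, 78.7% and 48.5%. H3K4me1 covered 7.90% of the centres and 2.16% of the positions 500 bp away. Around MYC set D centres, H3K4me1 covered 6.48% of centres at promoters with MYCN and 6.82% at those without. H3K27ac covered 80.3% of these MYC centres with MYCN and 76.9% without, and MYC of set C 77.1% with MYCN and 61.2% without.

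The MYC lists are the measurement that the rule left free, and MYC was present at nearly every acetylated promoter with MYCN. MYC of set D overlapped 642 of the 644 promoters (99.7%, 98.88 to 99.96%), against 7161 of 8532 (83.9%, 83.1 to 84.7%) without MYCN and 72.3% of all H3K4me3 regions. The difference was 15.8 points (14.6 to 16.6). MYC of set C overlapped 514 (79.8%, 76.5 to 82.8%), against 4832 (56.6%, 55.6 to 57.7%) without MYCN and 47.9% of all H3K4me3 regions, a difference of 23.2 points (19.7 to 26.3). All 514 also held MYC of set D. MYC in at least 1 list was thus at 99.7% of promoters with MYCN, against 87.6% without it and 76.7% of all H3K4me3 regions. Both lists named MYC at 79.8%, compared with 52.9% without MYCN and 43.4% of all H3K4me3 regions.

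Wider regions meet any peak more easily, and the promoters with MYCN were wider. Acetylated regions were therefore compared within deciles of H3K4me3 width and the deciles combined by the Mantel-Haenszel method. The difference for MYC of set C was then 17.4 points (14.2 to 20.6) and that for MYC of set D 11.4 points (10.6 to 12.2). In each of the 10 deciles both MYC lists were met more often with MYCN than without. The gap in set D was widest in the narrowest regions, of 180 to 429 bp, where 18 of 19 with MYCN held MYC (94.7%, 74.0 to 99.9%), against 493 of 898 without (54.9%, 51.6 to 58.2%). In the widest decile, from 2829 bp up, set D named MYC at all 118 promoters with MYCN and at 92.3% of the 802 without. For set C the shares in that decile were 89.0% with MYCN (81.9 to 94.0%) and 81.9% without (79.1 to 84.5%).

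**Figure D2:**
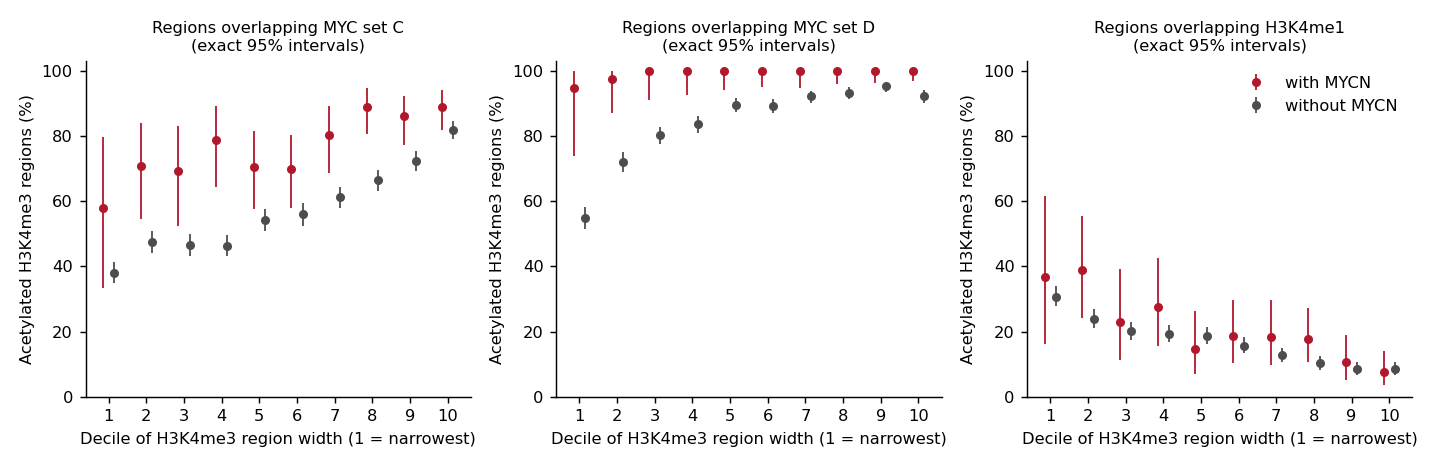
Share of acetylated H3K4me3 regions (y axis, %) that overlap MYC of set C, MYC of set D or H3K4me1, by decile of H3K4me3 region width (x axis), for regions with MYCN (red) and without MYCN (grey). Points are shares and bars exact 95% intervals. MYC of set D was at 100% of the regions with MYCN from the third decile up, and for H3K4me1 the bars of both groups overlapped in every decile.

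Agreement between the MYC lists was also higher where MYCN was listed. Of the 642 promoters with MYCN and MYC of set D, 80.1% (76.8 to 83.1%) held MYC of set C as well. Among the 7161 acetylated regions without MYCN that held MYC of set D, the share was 63.0% (61.9 to 64.2%). The difference was 17.0 points (13.6 to 20.1), or 13.4 points (10.2 to 16.7) within deciles of H3K4me3 width. Whether both lists stem from 1 library was not settled, so this is an agreement of lists and not of replicates.

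Acetylation went with MYC of set C among the regions that hold MYCN. The 63 H3K4me3 regions with MYCN and no H3K27ac were narrower, with a median of 1357 bp. MYC of set C was found at 79.8% of the acetylated promoters with MYCN, against 37 of these 63 (58.7%, 45.6 to 71.0%), a difference of 21.1 points (9.31 to 33.7) that does not take width into account. H3K27ac and this MYC list belong to the same set. MYC of set D was at 99.7% and at 98.4% (62 of 63), and the interval of that difference, -0.263 to 8.15 points, held 0.

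MYC peaks of set D were wider where MYCN was listed. The widest set D peak of a promoter had a median width of 789 bp (quartiles 643.5 and 980.75) at the 642 promoters with MYCN, against 576 bp (416 and 765) at the 7161 without, a ratio of 1.37. Within deciles of H3K4me3 width the ratio of medians lay between 1.25 and 1.41 and was above 1 in all 10. MYC regions of set C, which come from another caller, did not show this: their medians were 1310 and 1235 bp, and within deciles the ratio lay between 0.925 and 1.09 and was above 1 in 6 of 10. MYC of set D covered a median of 41.1% of the bases of a promoter with MYCN, against 29.8% without. Peak width is set by the caller as well as by the bound protein, and no test was made on widths.

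**Figure D3:**
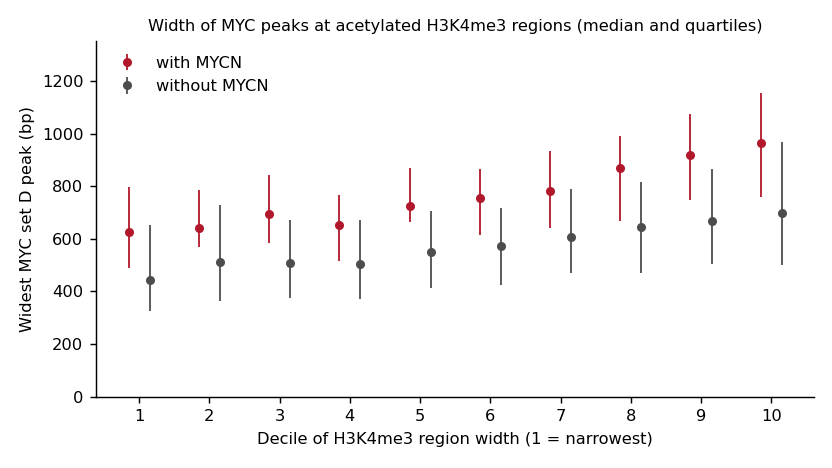
Width of the widest MYC set D peak of each acetylated H3K4me3 region that holds one (y axis, bp), by decile of H3K4me3 width (x axis), with MYCN in red and without MYCN in grey. Points are medians and bars span the quartiles; the median with MYCN is above that without in all 10 deciles.

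MYCN peaks mostly lay inside the wider MYC set D peaks at these promoters. Of the 671 MYCN peaks, 664 (99.0%) overlapped a MYC set D peak and 611 (91.1%) lay wholly inside one. The centres of these MYCN and MYC peaks were a median of 106.5 bp apart (quartiles 45.875 and 199.75). Distances were taken between overlapping peaks only, which limits how large they can be, and no distance expected from overlap alone was worked out. The MYC list of set C also names, for each region, the stretch with the highest signal. That stretch lay a median of 110.5 bp (quartiles 39.5 and 231.5) from the MYCN centre at the 521 MYCN peaks that had one. It was inside the MYCN peak in 302 cases (58.0%, 53.6 to 62.2%). The other 150 MYCN peaks overlapped no MYC set C region. At the 520 MYCN peaks in both MYC lists, the MYC set C maximum was a median of 110 bp from the MYCN centre and 123.25 bp from the MYC set D centre. It was nearer to the MYCN centre in 261 of the 520 (50.2%, 45.8 to 54.6%), so that neither centre was nearer to it more often. The MYC set C maximum and the MYC set D centre were a median of 121.5 bp apart at promoters with MYCN and 113 bp apart at those without.

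**Figure D4:**
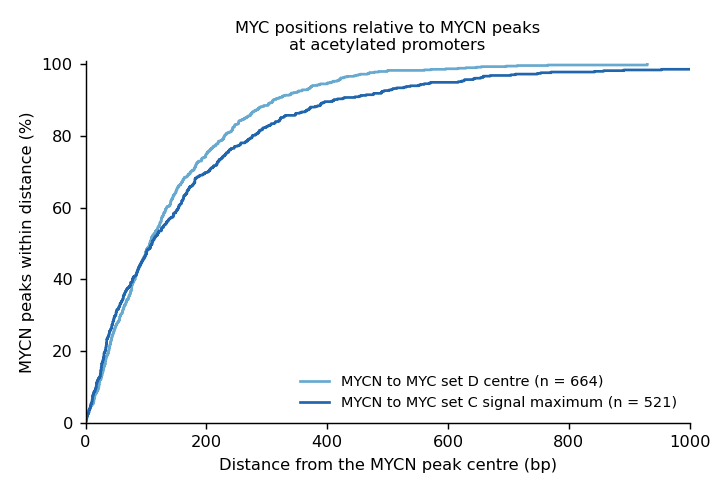
Cumulative share of MYCN peaks at acetylated promoters (y axis, %) within a given distance of their centre (x axis, bp) to the centre of the MYC set D peak (light blue, 664 peaks) and to the MYC set C signal maximum (dark blue, 521 peaks). About equal shares lie within 100 bp, 47.9% for set D and 47.0% for set C; 7 set C maxima lie beyond the axis.

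A second MYC peak in the same promoter was rare. At least 2 MYC set D peaks were listed in 35 of the 644 promoters (5.43%, 3.81 to 7.48%), against 4.08% of acetylated regions without MYCN. Exactly 2 were listed in 34 promoters, and MYCN lay in the wider alone in 24 of them (70.6%, 52.5 to 84.9%), in the narrower alone in 8, in both in 1 and in neither in 1. A wider peak meets a MYCN peak more easily, and the share expected from width alone was not worked out.

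H3K4me1 did not set these promoters apart when regions were simply counted. It overlapped 114 of the 644 (17.7%, 14.8 to 20.9%), against 1453 of 8532 without MYCN (17.0%, 16.2 to 17.8%) and 14.4% of all H3K4me3 regions. The difference of 0.672 points had an interval of -2.20 to 3.90. H3K4me1 was less common in wide regions, at 7.63% of promoters with MYCN in the widest decile and 8.60% of those without. Within deciles of H3K4me3 width the difference was 3.72 points (0.697 to 6.75), with the share higher with MYCN in 8 of 10 deciles. With H3K4me1 counted up to 1 kb beyond the region edges, the same within-decile difference was 2.42 points, and its interval of -1.04 to 5.89 held 0. At the 114 promoters H3K4me1 covered a median of 15.6% of the bases, against 18.2% at the 1453 regions without MYCN that overlapped it. In 71 of the 114 (62.3%) H3K4me1 overlapped the MYCN peak.

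Few enhancer-like regions, meaning H3K4me1 with H3K27ac and no H3K4me3, lay close by. One was found within 5 kb of 47 promoters with MYCN (7.30%), against 9.56% without, and within 50 kb of 56.8%, against 58.1% without. Within 1 kb the shares were 2.02% with MYCN and 4.74% without. These shares do not take region width into account. Within deciles of H3K4me3 width the difference was -1.10 points at 1 kb, -0.309 points at 5 kb and 0.757 points at 50 kb. These regions are defined in part by H3K27ac and H3K4me3, which chose the promoters, so the values are descriptions with no test.

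MYC set D peaks close to these promoters but outside them were few. A MYC set D peak outside the H3K4me3 region and within 5 kb of its edges was found at 33 of 644 promoters with MYCN (5.12%), against 1000 of 8532 without (11.7%), a difference of -6.60 points (-8.21 to -4.50) and of -4.06 points (-5.89 to -2.24) within width deciles. Among regions that hold MYC of set D themselves, the shares were 4.83% with MYCN and 7.16% without, and the within-decile difference of -1.76 points had an interval of -3.53 to 0.0178. Of the 1371 acetylated regions with neither MYCN nor MYC of set D inside, 35.5% had a set D peak within 5 kb. Another H3K4me3 region lay within 5 kb of 19.3% of promoters with MYCN, against 26.5% without. That value rests on the list that chose the regions and is a description.

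Within the group, MYC of set C was more frequent at the promoters with the widest MYCN peaks than at those with the narrowest. Promoters were divided into 4 classes of about equal size by the width of their widest MYCN peak. From the narrowest class (143 to 179 bp) to the widest (344 to 919 bp), MYC of set C was found at 75.6%, 80.9%, 75.8% and 87.0% of promoters. The widest class exceeded the narrowest by 11.3 points (2.79 to 19.7), although the classes between them did not rise in order, and this pair was compared after the values were seen. The median H3K4me3 width was 2160 bp in the widest class and 1919.5 bp in the narrowest, and its part in the difference was not tested. H3K4me1 was found at 19.4%, 20.4%, 12.4% and 18.6%, with no order among the classes. The median width of the widest MYC set D peak was 753, 765, 785 and 882.5 bp. Across the 642 promoters with both, the widths of MYCN and MYC set D peaks had a Spearman correlation of 0.22, MYCN and H3K4me3 widths one of 0.067, and MYC set D and H3K4me3 widths one of 0.38. These correlations are across regions of 1 library per list and are descriptions.

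The 12 promoters with the most bases in MYCN peaks held MYC in both lists without exception, and none overlapped H3K4me1. Over all 644 promoters, both lists named MYC at 79.8% and H3K4me1 was at 17.7%. In the class with the widest MYCN peaks, of 344 to 919 bp, MYC of set C was at 87.0% and H3K4me1 at 18.6%. Whether the absence of H3K4me1 from these 12 goes with wide MYCN peaks was not tested. First was a region of 3367 bp on chromosome 16 from 4320973 to 4324339, with 919 bp of MYCN, 2 H3K27ac regions and a MYC set D peak of 2221 bp. Its MYCN peak stood off the middle, with 349 of its 919 bases in H3K27ac and its centre 1043.5 bp from the MYC set C signal maximum. The second, of 2169 bp on chromosome 1 from 47798757 to 47800925, was 81.5% covered by H3K27ac, and all 902 bases of its MYCN peak lay in that mark. On chromosome 2 from 70312275 to 70316685 a region of 4411 bp held 898 bp of MYCN, toward its lower end. Its MYCN centre was 50.5 bp from the MYC set C maximum. Closer still, at 17.5 bp, was the fourth, on chromosome 1 from 244996772 to 245000265, with 889 bp of MYCN wholly in H3K27ac. These leading promoters thus differed in where MYCN lay relative to acetylation and to the MYC maximum, although all carried the same marks.

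The fifth was on chromosome 2 from 86331933 to 86334532, where MYCN filled 860 bp and the MYC set D peak 866 bp, with centres 14 bp apart. H3K27ac covered 22.9% of it, the least among the 12. Pairs of MYCN peaks under 1 MYC set D peak account for 2 entries: chromosome 6 from 146054901 to 146057354, with peaks of 418 and 425 bp, and chromosome 12 from 64797650 to 64799533, with peaks of 322 and 476 bp. The others were on chromosome 10 from 32634390 to 32637111, from 131907906 to 131910459 and from 103892211 to 103894464, on chromosome 8 from 37887320 to 37889728 and on chromosome 2 from 73510211 to 73512447. Their MYCN bases lay between 720 and 817.

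Only the promoter on chromosome 20 from 50807138 to 50809266 held 3 MYCN peaks, of 160, 213 and 158 bp. The first of these lay in neither H3K27ac nor MYC of either list, the second was 51 bp from the centre of the MYC set D peak of 1177 bp, and the third overlapped the edge of that peak, 629.5 bp from its centre. H3K4me1 covered 26.6% of the region. After this one and the pairs on chromosomes 6 and 12, the most MYCN bases among promoters with 2 peaks were on chromosome 3 from 183851543 to 183854479, where neither peak touched H3K27ac and each had a MYC set D peak of its own, of 494 and 963 bp. Next were 2 on chromosome 1, from 45097047 to 45098509 and from 23693977 to 23696712.

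MYC of either list was missing from 2 promoters. One lay on chromosome 19 from 47287967 to 47288515, a region of 549 bp with 349 bp of MYCN, 368 bp of H3K27ac and 215 bp of H3K4me1. The other, on chromosome 16 from 28505305 to 28505554, was 250 bp wide with 82 bp of MYCN and 163 bp of H3K27ac. Both H3K4me3 regions were far narrower than the median of the group.

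The 6 promoters with the largest share of bases in H3K4me1 were narrow. They were picked by that share, and H3K4me1 regions had a median width of 324 bp, so narrow promoters reach a high share more easily. H3K4me1 covered all of the regions on chromosome 12 from 8395746 to 8395986, on chromosome 17 from 34091540 to 34091753 and on chromosome 17 from 43250137 to 43250367. The next, with 84.6 to 97.4% covered, were on chromosome 19 from 45601999 to 45602230, on chromosome 8 from 12051729 to 12052206 and on chromosome 15 from 28834263 to 28834476. All 6 were between 214 and 478 bp wide and held MYC of set D, and 3 of them held MYC of set C.

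At the other end of the range, the widest promoter with MYCN spanned 8186 bp on chromosome 6 from 32934699 to 32942884. It held a MYCN peak of 151 bp, 6953 bp of MYC of set C and 2 MYC set D peaks. The next in width were on chromosome 9 from 86592854 to 86598157 (5304 bp) and on chromosome 1 from 27021150 to 27026327 (5178 bp), with MYCN peaks of 148 and 147 bp. These 3 widest regions thus held MYCN peaks close to the shortest in the list, 143 bp. The narrowest 3, of 180 bp each, were on chromosome 1 from 151812488, chromosome 7 from 157092731 and chromosome 15 from 60690697, and all 3 held MYC of set D.

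The number of promoters fell from 644 to 631 when the MYCN centre had to lie in the region. It was 575 when the MYCN peak itself had to be acetylated. The regions nearest the edge of the rule are listed by rank, which does not show how many depend on it. The least MYCN was on chromosome X from 45708776 to 45711234, with 2 bp shared, followed by chromosome 19 from 56651498 to 56652306, with 21 bp of MYCN and 21 bp of H3K27ac. The other 3 nearest the edge shared 39 bp on chromosome 17 (the region from 34091540), 65 bp on chromosome 1 (the region from 151812488) and 69 bp on chromosome 21 from 38935781 to 38936765. Just outside were regions 5 bp from a MYCN peak on chromosome 3 from 190231715 to 190232257, 10 bp on chromosome 6 from 33589127 to 33589954 and 11 bp on chromosome 10 from 16859729 to 16860190. Next came 13 bp on chromosome 6 from 35696321 to 35696568 and 44 bp on chromosome 1 from 61542193 to 61542612. All 5 of these outside regions overlapped MYC in both lists, as did 52.9% of all acetylated regions without MYCN. They were picked for lying beside a MYCN peak, and some touched only the edge of a MYC peak. The region on chromosome 6 from 33589127 shared 42 bp with a MYC set D peak of 605 bp. The region on chromosome 1 from 61542193 shared 47 bp with one of 539 bp.

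Promoters with MYCN were spread over all 23 chromosomes used, with a median of 1.93 Mb between neighbours and 29 of 621 gaps under 50 kb. The share of acetylated regions with MYCN was 4.11% on the gene-dense chromosome 19 (27 of 657, 2.73 to 5.92%), against 7.24% elsewhere. The acetylated regions had a median width of 1340 bp on chromosome 19 and 1631 bp elsewhere, and within deciles of H3K4me3 width the difference was -2.00 points. On the gene-poor chromosomes 4, 13 and 18 together the share with MYCN was 7.56%, against 6.98% elsewhere. The acetylated regions there were wider, with a median of 1868 bp against 1591 bp. Within width deciles the difference had the other sign, at -0.208 points. Chromosome X had the lowest share, 3.16% (9 of 285, 1.45 to 5.91%), and chromosome 20 the highest, 10.7% (28 of 262, 7.22 to 15.1%). These last 2 were picked for their values. The share with MYCN is set by the rule itself, so all of these are descriptions and no difference between chromosomes was tested. The number of copies of each chromosome in the line was not measured here.

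**Figure D5:**
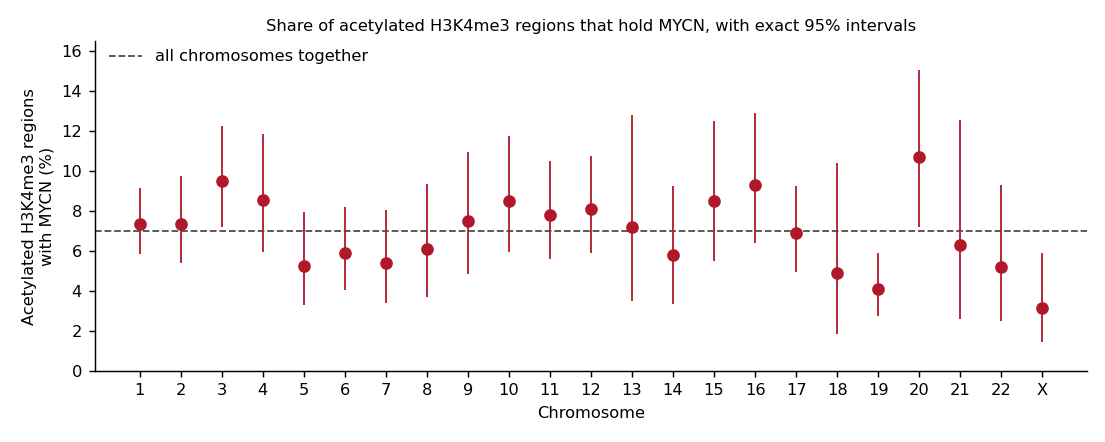
Share of acetylated H3K4me3 regions that hold MYCN (y axis, %) on each chromosome (x axis), with exact 95% intervals; the dashed line is the share over all chromosomes, 7.02%. The shares lie between 3.16% on chromosome X and 10.7% on chromosome 20.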

How the data were processed

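The deposited files are peak lists on hg19, per the submitters' processing notes, with 4 columns (chromosome, start, end, name) and no score, count or signal. Per the file headers, the MYCN peaks are cutruntools output for all fragments and the H3K4me3 peaks are from MACS2. The MYC callers were stringent SEACR with paired reads for set C and MACS2 without pairing for set D, per the file headers. The H3K27ac and H3K4me1 lists have no header, and the submitters' processing notes name MACS2 and SEACR. Tool versions, not given in the sources used here, are left out. Different callers set widths differently, so the widths of 2 groups were set side by side within a list only, and values that place lists beside each other depend on the callers.

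Peaks on chromosomes 1 to 22 and X were kept, and sharing 1 bp counted as overlap. The names in the MYC list of set C give the stretch of highest signal, complete for 9482 of 9498 regions. Shares were compared as Newcombe differences and, within 10 deciles of H3K4me3 width, as Mantel-Haenszel differences with Sato intervals. The confidence level was 95%. Overlap counts of all 30 ordered pairs of lists equalled those of bedtools 2.31.1. On simulated data over the 9176 acetylated regions, the within-decile interval covered a planted difference of 15 points in 38 of 40 runs and one of 0 in 37 of 40. Scripts ran in Python 3.11.15 with scipy 1.17.1, numpy 2.4.6 and, for figures, matplotlib 3.10.9.

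The regions and the measures were chosen with earlier results of these data known. Regions named in the text are the 12 with the most MYCN bases, the 6 with the most MYCN peaks, those without MYC, the 6 with the largest H3K4me1 share, the 3 widest and 3 narrowest, and the 5 just inside and 5 just outside the rule. No hg19 genome or gene annotation was used, so genes, sequences, cell type markers and E-boxes are not reported, and the IgG libraries were not analysed here. The alternatives were the overlap rule, either MYC list alone, wider MYCN peaks, width classes, distance to H3K4me1 and joined regions.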

Additional observations from a re-analysis of the deposited data

How the results depend on the processing

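The MYC difference of 12.04 points between acetylated promoters with and without MYCN kept its sign, with an interval above 0, under all 8 alternatives. It was 23.2 points with MYC of set C alone and 15.8 with set D alone, 8.40 within width deciles, 8.43 within 20 width classes, and 10.8 to 12.1 with MYCN centres, wider MYCN peaks, acetylated MYCN peaks or regions joined within 1 kb. The H3K4me1 difference of 0.672 points did not keep its sign. It was -1.65 points (-5.20 to 2.66) with only the wider MYCN peaks, where promoters with narrower ones were left out, -1.64 with H3K4me1 within 1 kb and -1.50 within 5 kb. It was 3.72 points within width deciles and 3.69 within 20 width classes, the settings whose intervals excluded 0. The causes were not tested. There were 338 promoters with a wider MYCN peak, by construction fewer than 644, and 575 to 651 under the other settings. The ratio of MYC peak widths was 1.37 in set D and 1.06 in set C. The 20 classes and the acetylated MYCN peak, except for the count of promoters, were chosen after seeing the data. No paired analysis of replicates was possible because every target but MYC has 1 library and the 2 MYC lists may stem from 1. The labels give set letters and no replicate numbers. The gene lists and E-box shares were not run for want of an hg19 annotation in use here. Depth is unknown and no IgG list was used, so how many MYCN sites were missed was not tested.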
